A study of Drosophila pseudoobscura and Drosophila ananassae and Drosophila yakuba with 13 samples.

Results

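The centromeric histone gene cid was higher in ovary than in testis by 46.2-fold in D. ananassae and by 2.62-fold in D. pseudoobscura, by the fold changes of the authors' deposited tables. The fold in D. pseudoobscura is uncertain, with an approximate 95% interval from 1.11-fold to 6.18-fold. The gene cid is described here with 3 other genes of centromeres, heterochromatin and piRNA source loci, which are rhi, Lhr and SuUR. These 4 genes were taken by their symbols from the authors' comparison of testis with ovary, 1 table for each species. All 4 have a row among the 11576 genes of the D. ananassae table. The D. pseudoobscura table, with 11946 genes, holds 3 of them and lists no gene under the symbol rhi, so 7 values are described.

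RNA sequencing was done on dissected testes and ovaries, with single reads of 50 bases, in a study aimed at genes with sex-biased expression. All flies were wild type, free of Wolbachia, virgin and adult, and were dissected at an age of 6 to 10 days. D. ananassae, of the stock center strain 14024-0371.13, was grown at 25 °C and gave 2 testis and 2 ovary libraries. D. pseudoobscura, of the stock center strain 14011-0121.94, was grown at 20 °C and gave 2 testis and 3 ovary libraries. Species, strain and temperature cannot be told apart. The labels do not say how many flies went into a library or whether libraries of a group came from separate dissections. The spread between libraries that enters the p-values may therefore be technical. D. yakuba libraries were not analysed here.

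Centromeres are marked by a variant of histone H3, called Cid in flies and CENP-A in vertebrates, which replaces H3 in the nucleosomes on which the kinetochore forms. The heterochromatin around them is packed by HP1 proteins, and several fast-evolving fly proteins bind there. In the female germline of D. melanogaster, Rhino, an HP1 relative encoded by rhi, binds piRNA source loci in heterochromatin and allows them to be transcribed into the small RNAs that silence transposons. Lhr, named for the rescue of lethal hybrids between D. melanogaster and D. simulans, encodes an HP1-binding protein. SuUR is named for a mutant in which underreplication is suppressed. It encodes a chromatin protein that slows DNA replication in heterochromatin of polyploid cells of D. melanogaster.

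Each value is a log2 fold change of testis over ovary, so a negative value means higher expression in ovary. The header does not state this direction, which was read from the order of the tissues in the table's title. Genes known for 1 gonad served as the check. TrxT, a thioredoxin of the testis and the only measured gene of 7 testis markers, stood at 4.56 for D. ananassae and 5.89 for D. pseudoobscura in the authors' deposited tables. The measured ovary markers were nos at -3.56 in D. ananassae, and dhd at -17.3, bcd at -9.82 and swa at -3.48 in D. pseudoobscura, again in the authors' deposited tables, out of 4 listed. In bulk gonads, fewer cells of a type and less RNA per cell cannot be told apart. Genes of other tissues also differed between the gonads of D. pseudoobscura. Of 7 muscle genes the 3 measured, Tm1, Tm2 and Mlc1, lay between -9.21 and -3.00 in the authors' deposited table. Of 3 accessory gland genes the 2 measured, Acp26Aa and Acp53Ea, lay at 5.56 and 9.05 in the same deposited table. Both accessory gland genes had low average expression, below that of the members, so their folds are less certain. In D. ananassae none (0) of the listed muscle, accessory gland or fat body genes was measured, so no such difference could be looked for there. Fat body genes were not measured in D. pseudoobscura either. The part of such tissues in the values below was not tested.

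Library depths and the level in each tissue are unknown, because the deposited tables hold comparisons alone. As a measure of error, a standard error was derived for each gene by dividing its absolute log2 fold change by the square root of its likelihood-ratio statistic, and an approximate 95% interval was set around the fold change from it. Over genes whose log2 average expression, rescaled so that the linear values of a table sum to 1000000, lay between 4 and 7, a range that holds all 7 values, this error had a median of 0.274 for D. ananassae and 0.655 for D. pseudoobscura. It varied little between genes of a table, with quartiles of 0.262 and 0.315 in the first species and 0.610 and 0.816 in the second. It is therefore close to an error shared by the table and is not the spread of 1 gene's own libraries.

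The gene cid was ovary-biased in both species. In D. ananassae its log2 fold change was -5.53 in the authors' deposited table, with a derived standard error of 0.325 and an interval from -6.17 to -4.89. Its adjusted p in the authors' edgeR likelihood-ratio test was 6.45e-64 in the authors' deposited table. On the linear scale the interval runs from 29.7-fold to 71.8-fold higher in ovary, and it is approximate, more so at folds this large. Of all genes of the species 5.98% had a more negative fold change than cid, which places it far on the ovary side. In D. pseudoobscura the log2 fold change of cid was -1.39 in the authors' deposited table, with a derived standard error of 0.633 and an interval from -2.63 to -0.15. Its adjusted p by the authors' edgeR test was 0.0389 in the authors' deposited table. The fold interval for cid in this species, from 1.11-fold to 6.18-fold higher in ovary, nearly reaches equal expression, and 44.1% of all genes had a more negative fold change. The 2 intervals of cid do not overlap. The tables were fitted and normalized separately, so the difference between species was not tested.

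The call of cid in D. pseudoobscura lay near the threshold. Between absolute log2 fold changes of 1 and 1.5, 269 of 654 genes of comparable average expression were called in that table, against 635 of 635 in D. ananassae. The smallest called value in that range of expression was 1.24 and the largest value not called was 1.31 in D. pseudoobscura. The call was lost with Bonferroni adjustment, with an adjusted p threshold of 0.01, and with a minimum of 2-fold after either centring. The fold change was -0.54 when centred on the median gene and -0.25 when centred on the median of the 25% of genes with the highest average expression. The call of cid in D. ananassae remained under all 6 alternatives tried, at -4.60 and -4.23 after the same centrings.

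**Figure D1:**
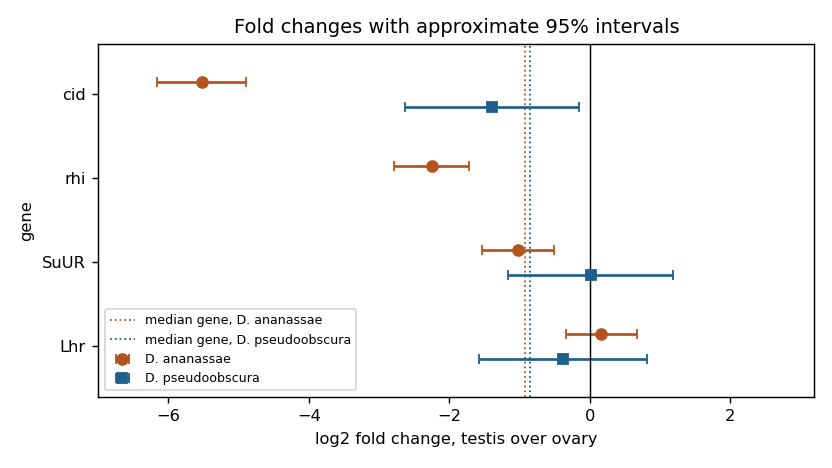
Log2 fold change of testis over ovary (horizontal axis) for cid, rhi, SuUR and Lhr (vertical axis). Circles are D. ananassae and squares D. pseudoobscura, bars are approximate 95% intervals derived from the likelihood-ratio statistic, and dotted lines mark the median gene of each table. The circles spread from -5.53 to 0.17 with intervals that do not overlap, and the squares lie between -1.39 and 0.01 with intervals that do.

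The piRNA-locus gene rhi was ovary-biased in D. ananassae, the species whose table lists it. Its log2 fold change was -2.25 in the authors' deposited table, with a derived standard error of 0.272 and an interval from -2.78 to -1.72. This corresponds to a level 4.76-fold higher in ovary, with an interval from 3.29-fold to 6.89-fold. The adjusted p was 3.06e-16 by the authors' edgeR likelihood-ratio test in the authors' deposited table. Although rhi passed the threshold by a wide margin, 32.5% of all genes of the table had a more negative fold change. Centred on the median gene it stood at -1.32, and centred on the median of the 25% of genes with the highest average expression at -0.95, where it fell just short of a minimum of 2-fold. In D. melanogaster rhi is also known as HP1D, and the D. pseudoobscura table lists a gene HP1Da, at -13.8 in the authors' deposited table. The table does not say how HP1Da relates to rhi, so it was not counted as rhi. A fitted fold of that size can arise where testis reads are nearly absent, which cannot be seen here, and is no bound on the difference.

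SuUR was ovary-biased in D. ananassae by the adjusted p and was not called in D. pseudoobscura. In D. ananassae its log2 fold change was -1.02 in the authors' deposited table, with a derived standard error of 0.261, an interval from -1.53 to -0.51 and an adjusted p of 0.000129 by the authors' edgeR test. It lay close to the median gene of that table, which stood at -0.93, and 48.7% of all genes were more negative. Centred on the median gene, SuUR of D. ananassae was at -0.094, and centred on the 25% of highest expression its sign turned, at 0.28. The call was also lost with Bonferroni adjustment. In D. pseudoobscura the log2 fold change of SuUR was 0.01 in the authors' deposited table, with an interval from -1.16 to 1.19 and an adjusted p of 0.983 by the authors' edgeR test. This interval includes the value found in D. ananassae, so a fold of that size is not excluded in D. pseudoobscura. At comparable average expression the smallest absolute log2 fold change called by the authors' edgeR test was 1.24 in D. pseudoobscura, above that of SuUR in D. ananassae, and 0.53 in D. ananassae. SuUR had the highest average expression of the members in D. pseudoobscura, above 77.7% of the genes of the table on a scale not divided by gene length.

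Lhr was not called in either species. In D. ananassae its log2 fold change was 0.17 in the authors' deposited table, with a derived standard error of 0.261, an interval from -0.34 to 0.68 and an adjusted p of 0.547 by the authors' edgeR test. On the linear scale this interval runs from 0.788-fold to 1.60-fold for testis over ovary, so larger differences in either direction lie outside it. Because the median gene was lower in testis, Lhr stood at 1.09 when centred on it, and 62.2% of all genes had a more negative fold change. In D. pseudoobscura Lhr was at -0.38 in the authors' deposited table, with a derived standard error of 0.610, an interval from -1.58 to 0.81 and an adjusted p of 0.574 by the authors' edgeR test. Centred on the median gene of that table, which stood at -0.85, its value was 0.46, so its sign depends on where zero is set. The intervals of the 2 species overlap.

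**Figure D2:**
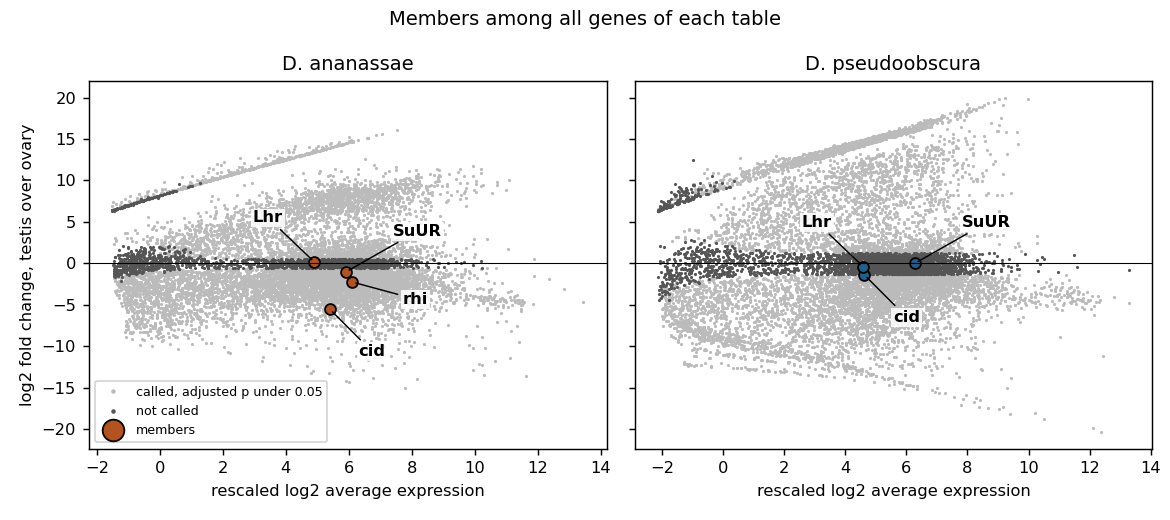
Log2 fold change of testis over ovary (vertical axis) against rescaled log2 average expression (horizontal axis) for all genes of each species, light grey where called at an adjusted p under 0.05 and dark grey where not. The members, as large labelled points, lie at average expression between 4.59 and 6.29, and in D. ananassae cid stands apart from the band of genes not called while Lhr lies within it.

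Differences between members of 1 table do not depend on where the zero of the fold change is set. In D. ananassae the order from ovary to testis was cid, rhi, SuUR and Lhr, and the intervals of all 6 pairs were separate. The ovary bias of cid exceeded that of Lhr by 5.70 on the log2 scale (combined standard error 0.416), that of SuUR by 4.51 (0.417) and that of rhi by 3.28 (0.424). The fold change of rhi lay 2.42 below that of Lhr (0.377) and 1.23 below that of SuUR (0.378). SuUR and Lhr, the nearest neighbours, were 1.19 apart (0.369). In D. pseudoobscura the order was cid, Lhr and SuUR, and the intervals of all 3 pairs overlapped. The difference of cid from Lhr had an interval from -2.73 to 0.72, that of cid from SuUR one from -3.11 to 0.31, and that of Lhr from SuUR one from -2.08 to 1.28. The order of the members in D. pseudoobscura is thus not resolved. These intervals treat the genes of a pair as independent, although they were measured in the same libraries.

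Across both tables ovary bias was common, and the count of members is to be read against it. In D. ananassae 3 of 4 members were called, all ovary-biased, in a table where 85.4% of genes were called, 53.8% as ovary-biased and 31.7% as testis-biased. In D. pseudoobscura 1 of 3 members was called, as ovary-biased, where 73.7% of genes were called, 44.1% as ovary-biased and 29.6% as testis-biased. Nothing is read from shares of 4 and 3 genes beside these backgrounds. The median log2 fold change of the members was -1.64 in D. ananassae, where that of all genes was -0.93, and -0.38 in D. pseudoobscura, where it was -0.85. Ovary-biased genes made up 63.0% of the called genes in D. ananassae as deposited. With a minimum of 2-fold after centring on the 25% of highest expression they made up 50.2%. The adjusted p was not recomputed after centring, so this step removed ovary-biased calls while the testis-biased stayed at 3664. The lower share follows from that rule.

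**Figure D3:**
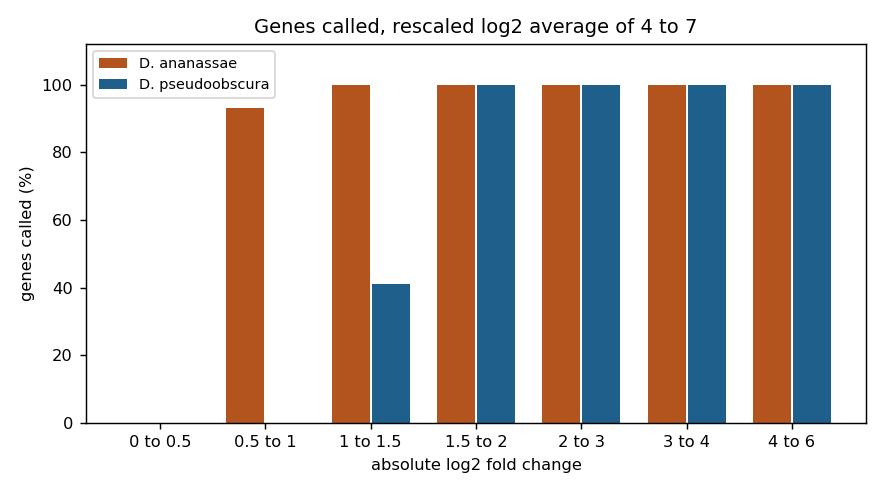
Share of genes called at an adjusted p under 0.05 (vertical axis, percent) by absolute log2 fold change (horizontal axis), for genes with rescaled log2 averages of 4 to 7 in each species. In the class from 0.5 to 1 the share was 93.0% in D. ananassae and 0% in D. pseudoobscura, and from 1 to 1.5 it was 100% and 41.1%.

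Few further genes of these pathways carry a symbol in the tables. Of 29 listed genes of the centromere and kinetochore, the D. ananassae table names cid alone and the D. pseudoobscura table adds mit(1)15, a synonym of Zw10, which encodes a kinetochore protein of the spindle checkpoint. This gene was not called, at 0.15 with an interval from -1.03 to 1.32 and an adjusted p of 0.829 by the authors' edgeR test in the authors' deposited table. Of 36 listed piRNA pathway genes rhi was the one measured in D. ananassae, and none (0) was measured under a listed symbol in D. pseudoobscura. Of 31 listed heterochromatin genes D. ananassae had Lhr and SuUR, and D. pseudoobscura had these and 6 more.

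The 6 further heterochromatin genes of D. pseudoobscura were all called, 5 as ovary-biased and 1 as testis-biased, in a table where 73.7% of genes were called, 44.1% as ovary-biased and 29.6% as testis-biased. Nothing is read from so few genes beside these backgrounds. HP1A, which encodes the main structural protein of heterochromatin, was at -1.36 in the authors' deposited table, next to cid at -1.39 and with a like adjusted p of 0.0416 by the authors' edgeR test. HP2, whose product binds HP1a in D. melanogaster, was at -1.56 with an adjusted p of 0.0199 by the same edgeR test in the authors' deposited table. HP1B at -3.74 and HP1C at -2.84 had larger ovary bias, while the authors' deposited table has HP1Kcd, of the same family, as testis-biased at 5.29. The rescaled log2 average expression of HP1Kcd was 1.23, below that of the members. Its fold is less certain, with an approximate interval from 2.75 to 7.83. The approximate intervals of HP1A, from -2.59 to -0.13, and HP2, from -2.80 to -0.32, overlap those of cid, Lhr and SuUR. After centring on the median gene HP1A was at -0.51 and HP2 at -0.71, below a minimum of 2-fold like cid.

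**Figure D4:**
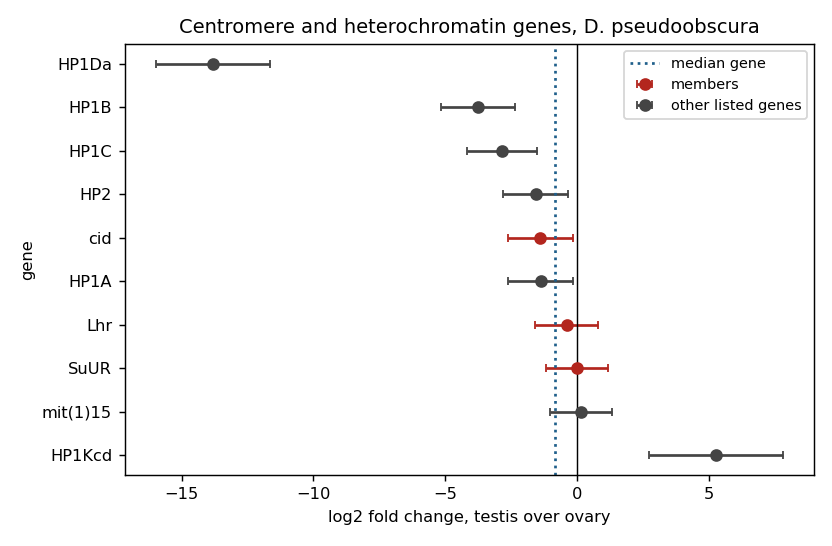
Log2 fold change of testis over ovary (horizontal axis) with approximate 95% intervals for the 10 listed centromere and heterochromatin genes (vertical axis) measured in D. pseudoobscura, members in red and other listed genes in grey. The dotted line marks the median gene at -0.85, and cid lies beside HP1A and HP2, while HP1Da at -13.8 and HP1Kcd at 5.29 are the extremes.

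Both tables name 24 protein-coding genes in common, among them the 3 members with a row in each. The genes nearest to cid over the 2 log2 fold changes were msl-1, hb and Dref. In the authors' deposited tables, D. ananassae first, msl-1 was at -6.86 and -1.59, hb at -6.48 and -2.46, and Dref at -4.53 and -2.65. Their Euclidean distances from cid were 1.35, 1.44 and 1.61. The gene msl-1 encodes a dosage compensation protein, hb an embryonic gap-gene transcription factor and Dref a transcription factor of replication genes. For both SuUR and Lhr the nearest gene was Dscam, a cell adhesion gene, at -0.83 and -0.48 in the authors' deposited tables, at distances of 0.535 and 0.997. The next was the other member of the pair, at a distance of 1.25, and then SREBP, a regulator of lipid synthesis, at -1.99 and -1.76 in the authors' deposited tables. For rhi, with a value in D. ananassae alone, the nearest named genes were g, lyso and Adh, between -2.37 and -2.36 in the authors' deposited table. Likeness over 1 or 2 values describes these fold changes only.

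The value of cid in D. pseudoobscura exceeded that in D. ananassae by 4.14 on the log2 scale, and by 4.06 when each table was centred on its median gene. Of the 24 shared genes 12 had the more negative value in D. ananassae and 12 in D. pseudoobscura, with differences from -8.60 to 5.27. In the direction of cid 1 gene, msl-1, differed by more. The differences were 1.03 for SuUR and -0.55 for Lhr. These comparisons set side by side folds from tables normalized separately, and no test was made between species.

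**Figure D5:**
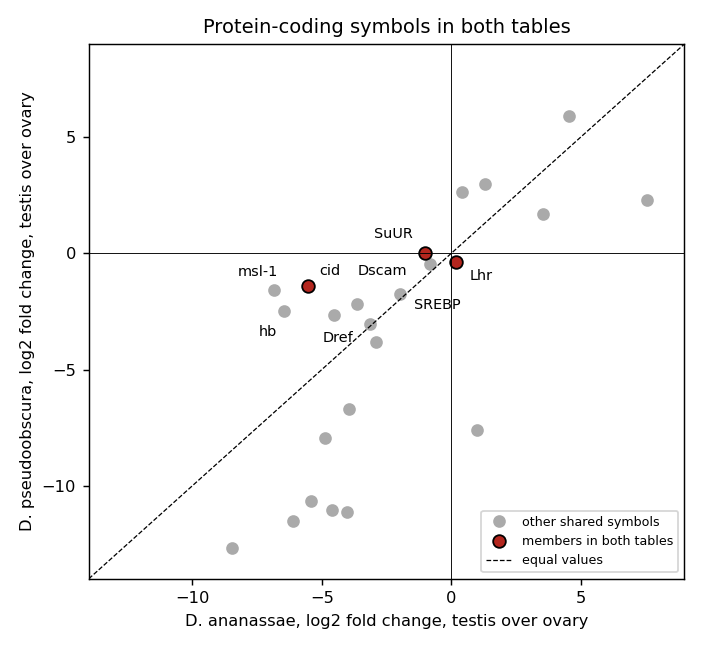
Log2 fold change of testis over ovary in D. ananassae (horizontal axis) and in D. pseudoobscura (vertical axis) for the 24 protein-coding symbols in both tables, with the members in red, their nearest genes labelled and a dashed line of equal values. SuUR and Lhr lie near the origin and cid lies with msl-1 and hb above the line, at -5.53 and -1.39.

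The gene models that surround the members bear on the counts, since the labels do not state that strand was kept. In the RefSeq annotation of D. pseudoobscura, 3 of the 4 symbols were matched. The gene cid overlaps 0 other annotated genes and lies between cbc and bbc. Lhr overlaps 1 gene, EDTP, and SuUR overlaps 2 genes that have no descriptive symbol. That annotation is of an assembly that the tables do not name, so reads shared between Lhr or SuUR and a partner are possible and their values are uncertain to that extent.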

How the data were processed

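RNA of testis and ovary libraries was compared within each species. The submitters' processing notes name edgeR (without a version), HTSeq 0.5.4p3, Bowtie2 2.1.0, Cuffdiff 2.1.0 and Cufflinks 2.1.0. The build, the gene models, the count filter and the scaling of libraries are each not given in the sources used here. Per the file headers, each deposited table holds for every gene 2 log2 values (fold change and average), the likelihood-ratio score with 1 degree of freedom, its p-value and the false discovery rate, called adjusted p here. The deposited p-values equalled the chi-square tail of the statistic within 0.493%, and the adjusted p the Benjamini-Hochberg value within 0.814%. The averages are headed log CPM, but their linear sum was 6.69e+06 and 8.09e+06 times 1000000, so they were rescaled to a total of 1000000 in each table.

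Genes were called at the authors' adjusted p under 0.05 over the whole table. The standard error was the absolute fold divided by the square root of the statistic, and the 95% interval built from it is an approximation. Its check on simulated counts took their spread as known and scaled no libraries. That check therefore does not show how well the interval holds in these data. The range of 4 to 7 for genes of comparable expression was chosen after the members' values were seen. Members, lists and alternatives were chosen with earlier results of these data known. Named genes were the members, every measured listed gene, the 3 genes nearest to each member in fold change, and tissue markers. Listed genes were matched by symbol or synonym, and others may be present under identifiers only. RefSeq names came from the assembly UCI_Dpse_MV25. Figures were drawn with matplotlib 3.10.9, and values were computed with pandas 2.3.3, scipy 1.17.1 and numpy 2.4.6 under Python 3.11.15. Depth per library is unknown, so no counting interval was computed.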

Additional observations from a re-analysis of the deposited data

How the results depend on the processing

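Over 6 alternatives, 39 of 54 values kept their direction and side of the threshold, or, for counts of members called, their size within 1.5 times. Centring alone changes a fold, and the adjusted p was not recomputed after it. Lhr could not become called under any alternative, so the count of values kept is not a measure of robustness. Bonferroni adjustment removed the calls of SuUR in D. ananassae (-1.02) and of cid in D. pseudoobscura (-1.39), leaving 0 called members in D. pseudoobscura, and an adjusted p under 0.01 also removed that of cid there (-1.39, 0 called members). With a minimum of 2-fold after centring on the median gene, SuUR of D. ananassae (-0.094) and cid of D. pseudoobscura (-0.54) were not called, Lhr of D. pseudoobscura turned to 0.46 and 0 members were called in that species. With the same minimum after centring on the 25% of genes with the highest average expression, 1 member was called in D. ananassae and 0 in D. pseudoobscura. There rhi (-0.95) and cid of D. pseudoobscura (-0.25) lost their calls, SuUR of D. ananassae turned to 0.28 and Lhr of D. pseudoobscura to 0.75. These changes follow from the thresholds and zero points themselves. A minimum of 2-fold as deposited and a filter on low averages changed no member's call. Over all genes, the ovary-biased numbered 6226 in D. ananassae as deposited, 5640 with a minimum of 2-fold alone and 3694 with that minimum and the latter centring together, and 5269 in D. pseudoobscura and 3279 under Bonferroni adjustment. No paired analysis was possible because the tables carry no column per library, and for the same reason no library could be left out. How the authors scaled the libraries is unknown, and in D. pseudoobscura no absolute log2 fold change under 1.24 was called at the average expression of the members.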
